A study of Caenorhabditis elegans with 16 samples.

Results

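The C-type lectin genes of Caenorhabditis elegans were followed across the 4 conditions of an optogenetic muscle contraction experiment. Members were all genes whose symbol is clec- followed by a number, which gave 264 of the 46904 genes in the count table. Of these, 239 are annotated as protein-coding and 25 as pseudogenes. Selection used names only and no measured value.

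A C-type lectin domain is a protein fold held together by disulfide bonds, which in its classical form binds sugars with the help of calcium. The worm genome holds an unusually large family of such genes, and many encode secreted proteins of the intestine. Several are known for being switched on by particular bacteria and are used as readouts of innate immunity, while for most members no ligand or role is known.

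All worms were young adults of strain PP3189, which carries the transgene hhIs251. In it the myo-3 promoter (myo-3p) drives ChR2(C128S,H134R), a channelrhodopsin-2 variant tagged with FLAG, in body wall muscle, with the unc-54 3′UTR behind it, and the transgene also carries Cbrunc-119(+). The channel works only when its cofactor all-trans retinal (ATR) is fed. Worms were kept at 18 °C, and from L1 on they received food with or without 0.1 mM ATR. For 8 h they were exposed to pulses of 455 nm blue light lasting 5 s with 20 min of darkness between them, or were kept dark. The 4 groups of 4 libraries were light plus ATR (functional channel and light, so that body wall muscle contracts), light minus ATR (light alone), dark plus ATR (retinal alone) and dark minus ATR. No group lacked the transgene, so its presence was shared by treated and control worms. Poly(A) RNA came from whole populations. RNA was thus mixed from all tissues, and fewer cells of a type and less RNA per cell cannot be told apart. Worms with ruptured vulvas had been removed by sedimentation during collection. The paper reports this rupture, with loss of eggs and germline tissue, as a result of ATR with light pulses. Removal would thus fall mainly on light plus ATR, and this selection cannot be told apart from the treatment.

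Between 19264325 and 32374032 counts were assigned to genes in each library, and the spike-in RNAs held 0.721% to 0.953% of all counts. Members took 0.377% to 0.419% of the gene counts. Markers of intestine, muscle, pharynx, hypodermis, neurons, germline and sperm were all detected in every library. Levels are given as CPM, a gene's count relative to its library's TMM-scaled total. Summed CPM of 81 sperm markers, 64 of them tested and 3 (nspd-8, nspd-11 and nspd-12) at 0 in every library, ran from 1662 to 2636 in light plus ATR, 1281 to 1877 in light minus ATR, 1078 to 1549 in dark plus ATR and 997 to 1333 in dark minus ATR. The 14 intestinal markers, none of them at 0, summed to 6538 to 6906 CPM in light plus ATR and to 4900 to 5615 CPM in the 12 control libraries, but went both ways between the light groups (4 higher and 3 lower, median log2 0.07). Body wall muscle markers summed to 5507 to 5744 CPM in light plus ATR and 4257 to 5162 CPM in the controls (7 of 10 higher between the light groups and none lower), and pharynx markers to 556 to 572 and 390 to 518 CPM (4 of 11 tested higher, 1 lower). Germline and oocyte markers summed to 13940 to 14920 CPM in light plus ATR and to 15066 to 16538 CPM in the controls. Between the light groups 1 of these 18 was called higher and none lower, and 3 of the 64 tested sperm markers were higher and none lower. Neuron markers summed to 463 to 482 CPM and, in the controls, 415 to 450 CPM (3 of 11 higher, 1 lower). Hypodermis markers overlapped in sum, at 1276 to 1725 and 1469 to 1815 CPM (none of 10 higher, 1 lower). Median log2 fold changes between the light groups were 0.36 for hypodermis markers and 0.36 for sperm markers. They were 0.32 for pharynx, 0.27 for body wall muscle, 0.13 for neuron and -0.08 for germline and oocyte markers. Several of these levels moved with the conditions. Only the sperm level was added to the model. Since that level differed between the groups, the fit with it cannot tell the part of sperm from that of the conditions.

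A filter on low counts left 120 of the 264 members for testing (45.5%, against 32.1% of all genes). Filtering looked at each gene's counts across the groups, so the tested members are those with reads in whole young adults and not the family as a whole. The 144 members left out were nearly silent. In 26 of them no library held a count, and the other 118 had a median level of 0.032 CPM and a highest level of 0.273 CPM (clec-55). Of the 25 pseudogenes, 20 were among those left out. Members left out include clec-38, known for a part in axon guidance, with 15 counts over all 16 libraries, and clec-39, whose mutants have been studied under Serratia marcescens infection, with 9 counts. Both sit with clec-29, which had 18 counts, and clec-34 in 1 run of neighbouring genes on chromosome V (16733821 to 16741588, WBcel235), no gene of which was tested.

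Among members with few counts, 4 control libraries stood apart. Replicates 2 and 4 of light minus ATR and replicate 2 of both dark plus ATR and dark minus ATR held over 50% of the summed CPM of 20 members, out of 186 with at least 10 counts in all (10.8%, against 0.732% of all genes with as many counts). Summed, these 20 members reached 6.79, 5.05, 5.82 and 4.3 CPM in the 4 libraries and 0.176 to 0.624 CPM in the other 12. For example, clec-137 held 0.396, 0.306, 0.55 and 0.269 CPM in them and no count elsewhere, and clec-94 and clec-134 were likewise confined to them. Only 1 of the 20, clec-197, was tested. The libraries were singled out after these values were seen, so the shares are a description. None of them is a light plus ATR library, and the counts of calls are also given without them. The cause was not tested.

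A few members held most of the family's transcripts. Per kb of exon, clec-87 had the highest mean level at 1498 CPM per kb, followed by clec-63 (379), clec-88 (330), clec-50 (266), clec-91 (244) and clec-1 (170 CPM per kb). Counted without length, clec-87 alone held 36.5% of the family's summed CPM, and the 6 most abundant members together held 75%. The median tested member stood at 1.41 on the log2 CPM scale, against 3.5 for all tested genes. Summed over the family, CPM lay between 3782 and 4027 in light plus ATR and between 3784 and 4191 in the controls, so the groups overlapped.

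**Figure D1:**
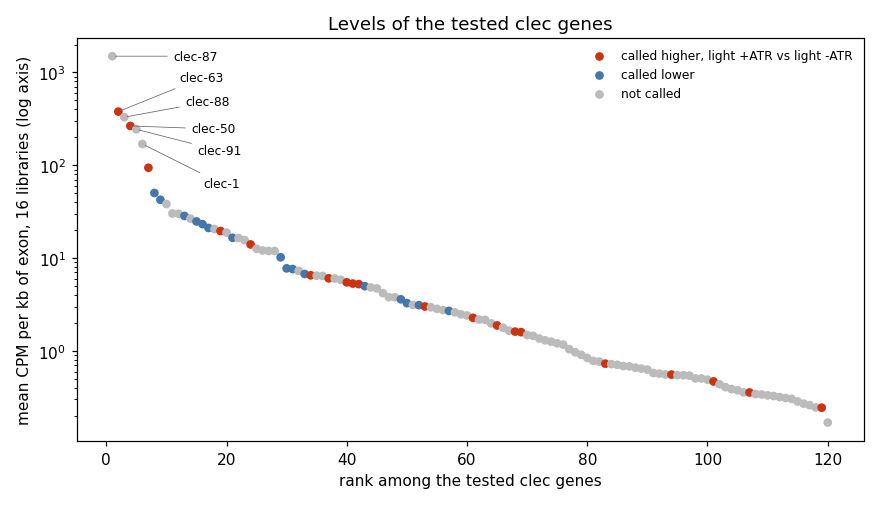
Mean level of each of the 120 tested clec genes, in CPM per kb of exon over the 16 libraries on a log axis, against its rank, with members called higher (red) or lower (blue) between light plus ATR and light minus ATR. A single gene, clec-87, lies at 1498 CPM per kb, and called members are found from the second rank (clec-63, 379 CPM per kb) down to levels under 1 CPM per kb.

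The comparison of light plus ATR with light minus ATR asks what a functional channel adds under the same light. Between these groups, 20 of the 120 tested members were higher and 16 were lower at an adjusted p under 0.05 (edgeR quasi-likelihood test, Benjamini-Hochberg over 15044 genes). That is 30% of the tested members, against 16.3% of all genes tested (8.39% higher and 7.9% lower). Since the family is less abundant than most genes, the same share was also taken by level. Among members with 1 to 10 CPM, 38% of 50 were called against 14.7% of all genes at that level. From 10 to 100 CPM the shares were 37.5% of 24 members and 18.8%, at 100 CPM or more they were 50% of 8 members and 24%, and under 1 CPM they were 10.5% of 38 members and 6.18%. All 4 calls under 1 CPM were rises. The filter asks for reads in only as many libraries as a group holds. A gene this low can thus pass through light plus ATR alone, so nothing is drawn from the last share.

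Changes went in both directions and were spread around 0. The median member differed by a log2 fold change of 0.11, against 0.01 for all genes, while the median size of the change regardless of sign was 0.36 against 0.14. Called rises had a median of 0.61 and ran from 0.13 (clec-50) to 2.21 (clec-70). Called falls had a median of -0.44 and ran from -0.16 (clec-83) to -0.92 (clec-265). Scaled by library totals, the split was 28 higher and 12 lower, in place of 20 and 16. Over all genes that scaling gave 2057 higher and 598 lower, in place of 1262 and 1188. Leaving out 1 of the 8 libraries at a time gave 27 to 34 calls (1619 to 2384 over all genes, in place of 2450). In every such fit 11 of the 20 rises and 11 of the 16 falls were called. Without the 4 control libraries that stood apart, which leaves 2 of light minus ATR, 10 members were higher and 11 lower (17.2% of those tested, against 7.28% of all genes). No called member changed sign in that fit. In all, 17 of the 36 calls (8 rises and 9 falls) held under every alternative run.

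**Figure D2:**
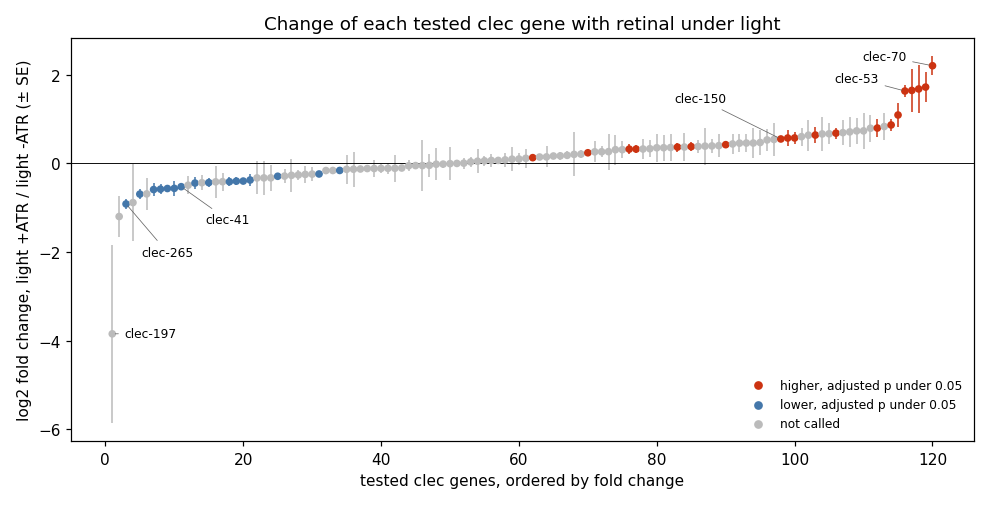
Log2 fold change of light plus ATR over light minus ATR for each of the 120 tested clec genes, in order, with its standard error as a vertical line. The 20 members called higher (red) reach 2.21 at clec-70, the 16 called lower (blue) reach -0.92 at clec-265, and the lowest point, clec-197 at -3.85 with a standard error of 2, is not called.

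A stretch of chromosome IV gave 6 of the rises. Between clec-67 and clec-79 (IV: 3922165 to 3975721, 53.6 kb, WBcel235 with Ensembl release 115), the annotation holds 13 members, 2 of them pseudogenes. Of these 9 were tested, 6 were called higher (over the family 20 of 120, and 8.39% of all genes) and none lower. The stretch was singled out after these values were seen. Its other tested members were clec-73, with a log2 fold change of 0.6 (adjusted p = 0.0588), clec-174 (0.2) and clec-76 (-0.33).

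Within that stretch clec-70 changed most. It has 9 exons (WBGene00021581, IV: 3932708 to 3936307, plus strand), and its function is not known. Its CPM was 6.39, 9.44, 8.08 and 7.97 in the light plus ATR libraries and 2.33, 1.83, 1.2 and 1.43 in light minus ATR. Dark plus ATR gave 1.32, 1.38, 2.03 and 1.37 CPM, and dark minus ATR 1.67, 2.15, 2.3 and 3.48 CPM. All 4 light plus ATR libraries lay above all 12 controls. The difference from light minus ATR was 4.61-fold (log2 2.21 ± 0.22 SE, adjusted p = 3.23e-07, edgeR). Just upstream, clec-69 is annotated as a pseudogene (IV: 3929650 to 3931654) and rose as well, from 0.436 ± 0.066 CPM in light minus ATR to 1.45 ± 0.37 CPM in light plus ATR (SD, n = 4, adjusted p = 0.00103 by edgeR). Similar neighbours can share reads, and no sequence was compared here, so the values of clec-69 and clec-70 may not be independent.

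clec-67 lies at the left end of the stretch (IV: 3922165 to 3925039) and is used as a readout of the p38 MAP kinase PMK-1, the central kinase of worm intestinal immunity. Its level was 8.23, 9.08, 9.08 and 9.3 CPM in light plus ATR against 6.49, 5.84, 5.4 and 4.38 CPM in light minus ATR. Dark libraries held 4.72 to 5.98 CPM with ATR and 4.14 to 6.23 CPM without. Treated libraries thus stood above every control, by 1.61-fold over light minus ATR (log2 0.68 ± 0.13 SE, adjusted p = 0.000503, edgeR). Of 11 tested genes of the p38 pathway list 1 was called, where 16.3% of all genes were, namely the p38 kinase gene pmk-3 with a log2 fold change of 0.28.

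clec-71 and clec-72 sit to the right of clec-70. In clec-71 light plus ATR libraries held 1.84, 1.83, 1.77 and 1.59 CPM, and light minus ATR held 1.45, 0.644, 0.936 and 0.918 CPM. For clec-72 the values were 3.14, 3.58, 3.96 and 4.44 CPM against 2.1, 1.98, 1.96 and 2.24 CPM. Neither gene overlapped any of the 12 controls, which ran from 0.644 to 1.45 CPM for clec-71 and from 1.24 to 2.24 CPM for clec-72. The folds were 1.74 (adjusted p = 0.00895, edgeR) and 1.83 (adjusted p = 0.000191). Without the 4 libraries that stood apart, clec-71 was not called (log2 0.54, adjusted p = 0.174, edgeR). At the right end, clec-79 rose from 9.45 ± 1.24 to 14.1 ± 2.65 CPM (SD, n = 4, adjusted p = 0.0359 by edgeR). This call was less firm: it held in 3 of 8 fits that each left out 1 library, and with the sperm marker level in the model the log2 fold change was 0.2 (adjusted p = 0.248).

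The smallest p of the whole family belonged to clec-53, on chromosome I (3871474 to 3873402), where no other member is its neighbour. Light plus ATR libraries held 10.9, 12.3, 11.2 and 10.7 CPM, and light minus ATR 3.89, 3.07, 4.19 and 3.26 CPM. Dark plus ATR held 3.7 to 4.79 CPM and dark minus ATR 3.43 to 5.14 CPM. The light plus ATR level was more than the highest control in every library, and exceeded light minus ATR by 3.11-fold (log2 1.64 ± 0.12 SE, adjusted p = 3.13e-09, edgeR).

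Among abundant members, clec-150 on chromosome III (1002707 to 1006298) rose most. Its libraries held 140, 142, 150 and 143 CPM in light plus ATR and 97.4, 92.2, 101 and 101 CPM in light minus ATR, while the dark libraries lay between 93.2 and 124 CPM. The groups did not overlap, and the fold was 1.47 (log2 0.55 ± 0.05 SE, adjusted p = 1.53e-07, edgeR). On chromosome II, the neighbours clec-62 and clec-63 rose together. clec-62 held 29.5 to 34.5 CPM in light plus ATR and 20.4 to 25.9 CPM in all controls (1.34-fold over light minus ATR, adjusted p = 0.000151, edgeR). clec-63, the second most abundant member per kb, held 539, 565, 555 and 585 CPM in light plus ATR against 506, 438, 457 and 498 CPM in light minus ATR. This small rise of 1.18-fold (log2 0.24 ± 0.05 SE, adjusted p = 0.00174, edgeR) was larger than the spread, since no control library exceeded 506 CPM. In the same run of 5 genes (II: 12893062 to 12906644), clec-66 went the other way, so neighbouring members did not all share a direction.

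Rises at low levels were less certain. clec-258 and clec-260, both on chromosome V, had log2 fold changes of 1.68 and 1.65, but stood at 0.759 and 0.721 CPM at most in light plus ATR, and in dark plus ATR single libraries reached 0.472 and 0.747 CPM. Their calls held in 4 and 5 of the 8 fits without 1 library. clec-125 on chromosome II held in all 8 such fits but not with the sperm marker level in the model (adjusted p = 0.0593, edgeR), at 0.765 to 1.06 CPM against 0.372 to 0.495 CPM in light minus ATR (log2 1.09, adjusted p = 0.00662, edgeR). The remaining rises were clec-31 (0.64), clec-227 (0.57), clec-264 (0.38), clec-146 (0.37), clec-54 (0.32), clec-147 (0.32) and clec-50 (0.13), all as log2 fold changes. clec-31 was the only call among 11 tested of the longest run, 13 neighbouring members on chromosome V (16839121 to 16869840), whose tested genes had mean levels between 0.308 and 3.52 CPM and log2 fold changes between -0.29 and 0.73. Of the 7 genes in a run on chromosome I (11142110 to 11158833) only 1 was tested and it was not called, and of 7 in a run on chromosome II (3568117 to 3581475) none was tested.

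**Figure D3:**
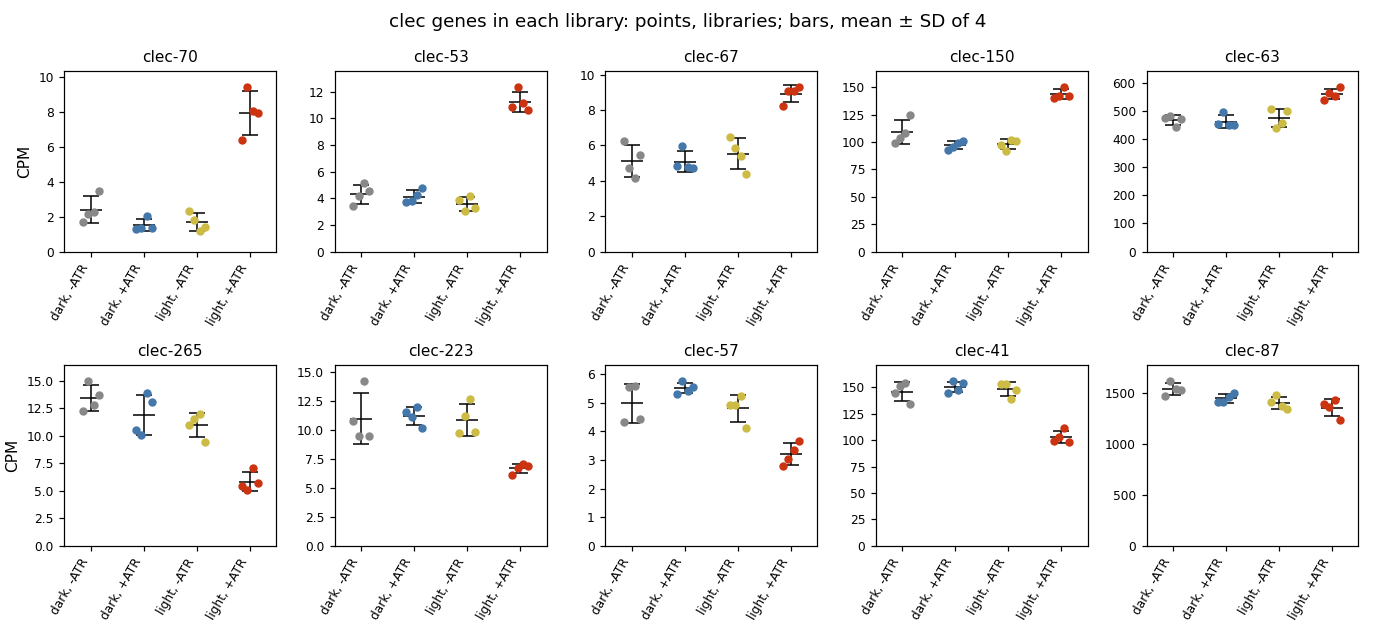
CPM of 10 clec genes in each library (points) with the mean and SD of the 4 libraries of a group (black bars), from dark minus ATR on the left to light plus ATR on the right of each panel, all axes starting at 0. In clec-70, clec-53, clec-67, clec-150 and clec-63 the 4 light plus ATR libraries lie above all 12 controls, in clec-265, clec-223, clec-57 and clec-41 they lie below, and in clec-87 the groups overlap.

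clec-265 fell most. This gene of chromosome X (3031783 to 3033117) had 5.43, 5.1, 7.04 and 5.69 CPM in light plus ATR and 11, 11.5, 12 and 9.43 CPM in light minus ATR, with 10.1 to 14.9 CPM in the dark libraries. Every treated library was below every control, and the level was 1.89-fold lower than in light minus ATR (log2 -0.92 ± 0.12 SE, adjusted p = 6.87e-06, edgeR). clec-223, which lies next to clec-222 on chromosome V (11273148 to 11278161), showed 6.16, 6.71, 7.08 and 6.87 CPM against 9.73, 11.2, 12.7 and 9.84 CPM. Its dark libraries held 9.48 to 14.2 CPM, again without overlap, and its log2 fold change was -0.69 ± 0.12 SE (adjusted p = 0.000192, edgeR).

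clec-41 was the most abundant member to fall. It and clec-42 have been studied for their part in defence against Bacillus thuringiensis. Its CPM was 99.5, 103.4, 111 and 98.3 in light plus ATR and 154, 153, 139 and 147 in light minus ATR, and the dark libraries lay between 134 and 156 CPM. Treated libraries were all lower than the controls, by 1.44-fold against light minus ATR (log2 -0.53 ± 0.05 SE, adjusted p = 6.31e-08, edgeR). clec-42, on the same chromosome V, was not called in this comparison, at 1.61 to 1.97 CPM against 1.09 to 1.58 CPM (log2 0.44 ± 0.24 SE, adjusted p = 0.211, edgeR).

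clec-4, whose mutants have been studied for altered avoidance of a pathogen, held 2.99, 2.73, 3.12 and 4.59 CPM in light plus ATR and 5.58, 4.46, 4.5 and 5.71 CPM in light minus ATR. A single treated library reached into the controls, so the groups overlapped, but the difference was called (log2 -0.59 ± 0.15 SE, adjusted p = 0.00902, edgeR), though not without the 4 libraries that stood apart (log2 -0.59, adjusted p = 0.073). In clec-57 the libraries held 2.79, 3.04, 3.35 and 3.64 CPM against 4.93, 4.9, 5.22 and 4.13 CPM, and all 12 controls were higher (log2 -0.58 ± 0.12 SE, adjusted p = 0.00154, edgeR). Its run on chromosome V (14469231 to 14482317) was mixed, as clec-56 fell as well (log2 -0.29) while clec-227 (0.57) and clec-54 (0.32) rose. clec-66 fell from 10 ± 0.68 to 6.76 ± 0.2 CPM (SD, n = 4, adjusted p = 5.4e-05 by edgeR), below all controls.

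The neighbours clec-186 and clec-187 on chromosome IV (12866109 to 12871495) both fell. clec-186 held 25.2 to 28.9 CPM in light plus ATR against 33.8 to 41 CPM in the controls, and clec-187 held 10.7 to 14.7015 CPM against 14.7104 to 22 CPM, so that its groups nearly touched. Other falls below all controls were those of clec-5 (log2 -0.43), clec-173 (-0.4) and clec-56. The remaining called falls were clec-86 (-0.56), clec-190 (-0.44), clec-170 (-0.38), clec-10 (-0.24) and clec-83 (-0.16), whose groups overlapped and whose calls were lost in at least 1 fit without a library. clec-86 overlaps alh-10 on the other strand, and clec-83, clec-147, clec-190 and clec-264 overlap genes of the other strand too. The setting used for strand in counting is not given in the sources used here, so reads of such pairs may not be told apart.

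Taking the libraries themselves, all 4 light plus ATR libraries lay above all 12 controls in 17 tested members (7.35% of all genes tested did so) and below them in 10 (6.29% of all genes). Against the 4 light minus ATR libraries alone the numbers were 25 above (10.8% of all genes) and 11 below (9.96%).

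**Figure D4:**
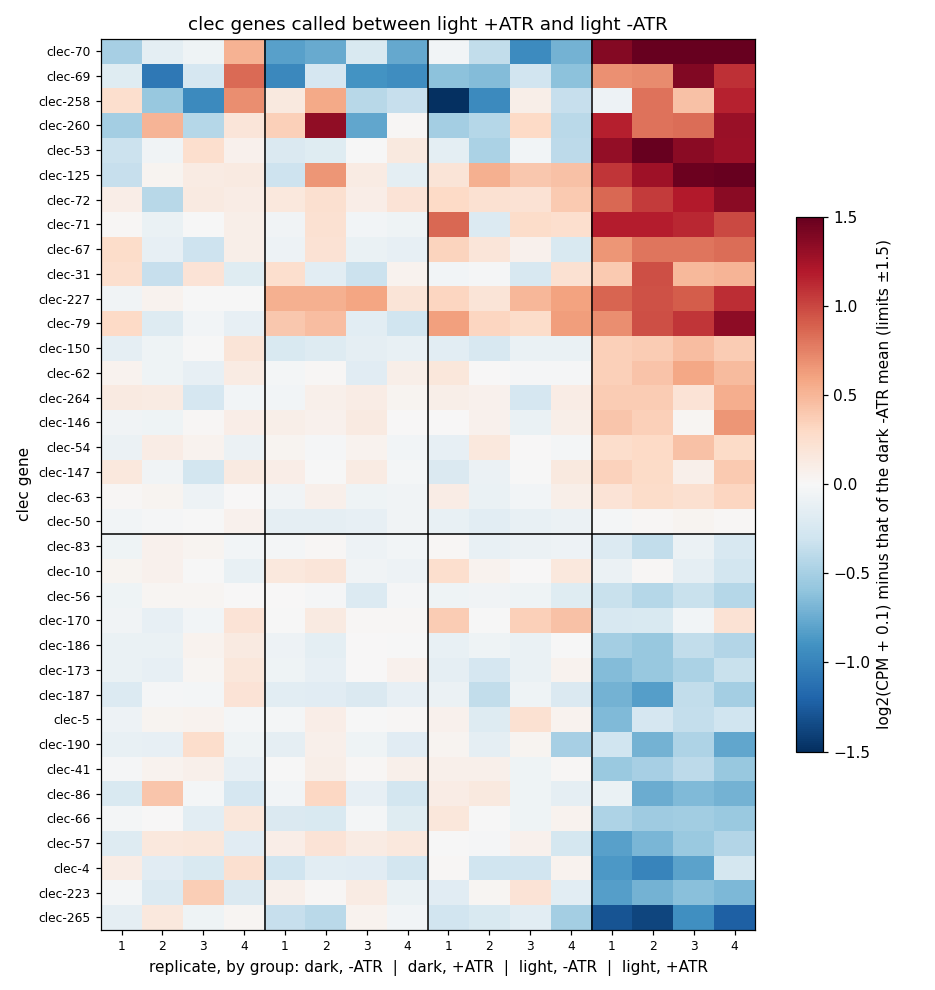
The 36 called clec genes (rows, 20 higher above the line and 16 lower below it) in the 16 libraries (columns, by group and replicate), coloured by log2(CPM + 0.1) minus that of the mean of dark minus ATR, with colours limited at ±1.5. The light plus ATR columns stand apart in most rows, from clec-70 in red to clec-265 in blue, while clec-227 and clec-79 are also raised in several light minus ATR and dark plus ATR libraries.

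Of the 12 members with a role reported in worms, 9 were tested, of which clec-67 was higher and clec-41 and clec-4 were lower, while 30% of all tested members and 16.3% of all genes were called. clec-60, which is known to be induced by Staphylococcus aureus, was near the detection limit. Its level was 0.154 to 0.645 CPM in light plus ATR and 0.446 to 1.55 CPM in light minus ATR, a difference that did not pass (log2 -1.2 ± 0.47 SE, adjusted p = 0.0877, edgeR). clec-85, another p38-dependent gene, held 15.9 to 16.8 CPM against 15.4 to 19.6 CPM (log2 -0.02 ± 0.08 SE, and 0.05 with library totals). clec-49, studied like clec-39 under Serratia infection, had a log2 fold change of 0.07 ± 0.08 SE, and clec-7 one of 0.21 ± 0.09 SE (adjusted p = 0.105, edgeR). The dominant clec-87 held 1397, 1366, 1430 and 1238 CPM in light plus ATR and 1413, 1480, 1379 and 1347 CPM in light minus ATR, which overlapped (log2 -0.05 ± 0.05 SE, adjusted p = 0.541, edgeR). This value changes sign when scaled by library totals (0.02).

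Against dark plus ATR, in which ATR is fed and only light is missing, 31 members were higher and 20 lower. This is 42.5% of those tested, against 27.7% of all genes (16.2% higher and 11.6% lower). With library totals the split was 37 and 13, where all genes split 3374 and 716 in place of 2431 and 1738. The smallest p here were those of clec-53 (log2 1.44), clec-41 (-0.55), clec-150 (0.57) and clec-70 (2.38). Against dark minus ATR, 37 were higher and 24 lower (50.8%, against 36.9% of all genes, of which 20.4% were higher and 16.5% lower). Their split was 41 and 14 with library totals and 42 and 12 with spike-in scaling. All genes split 4091 and 909 with library totals and 3841 and 396 with spike-in scaling, in place of 3068 and 2478. Under spike-in scaling the median log2 fold change of all genes was 0.16 in place of 0.01. The strongest members against dark minus ATR were clec-53 (1.38), clec-265 (-1.2), clec-41 (-0.5) and clec-70 (1.71). All 3 comparisons share the light plus ATR libraries and so are not independent. With the sperm marker level in the model, 21 members (11 higher and 10 lower) were called against dark plus ATR and 19 (9 and 10) against dark minus ATR. These are 17.5% and 15.8% of those tested, where all genes fell to 6.77% and 6.95%. Between the light groups the same model called 26 members (12 and 14), or 21.7% against 10.8% of all genes. Of the 20 rises and 16 falls between the light groups, 10 and 13 stayed called with the same sign. Without the 4 libraries that stood apart, 46 members (37.7%, against 22.9% of all genes) were called against dark plus ATR and 52 (42.6%, against 28.8%) against dark minus ATR. DESeq2, which also tests members with few counts, called 15.3% of members between the light groups (12.6% of all genes), 23.3% against dark plus ATR (20.1%) and 22.9% against dark minus ATR, which is below the 26.3% of all genes. Its shares are over 21098 genes in place of 15044, and most of the added members were near silent. Genes left without an adjusted p were counted as not called. These shares thus have another base than those of edgeR. Between the light groups DESeq2 kept 18 of the 20 rises and all 16 falls.

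Light without ATR and ATR without light were the single-factor controls. No member was called between light minus ATR and dark minus ATR, and none of the 15044 genes was either (0%), by edgeR. At an unadjusted p under 0.05 there were 22 members (18.3%, against 13.4% of all genes), and DESeq2 called 2 (0.847% against 0.806% of all genes), clec-151 (log2 0.74) and clec-50 (-0.13). Between dark plus ATR and dark minus ATR no member was called by edgeR or DESeq2, with 11 at an unadjusted p under 0.05 (9.17%, against 7.84% of all genes), and 10 of all genes (0.0665%, with 0.0332% higher and 0.0332% lower) were called by edgeR.

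Many members were nevertheless higher on average in light minus ATR than in dark minus ATR without passing the test. A log2 difference over 0.4 was seen in 23 of the 120 tested members (19.2%, against 10.2% of all genes and 50 of the 64 tested sperm markers). This group was picked after its values were seen. Its mean levels ran from 0.258 to 11.6 CPM, and low counts scatter more. The shares were not matched by level, so they cannot set the family apart from other genes with few counts. Of the 120 tested members, 66 were higher with light alone and 54 lower. clec-42 held 1.25, 1.09, 1.38 and 1.58 CPM in light minus ATR and 0.767, 0.86, 0.249 and 0.562 CPM in dark minus ATR, with 1.61 to 1.97 CPM in light plus ATR and 0.65 to 1.11 CPM in dark plus ATR. Its level was thus highest with both factors, intermediate with light alone and lowest in the dark, and its difference with light alone was a log2 of 1.12 ± 0.27 SE (adjusted p = 0.142, edgeR). In clec-151 the same order was seen, at 5.59 to 8.24, 4.16 to 5.86, 3.15 to 5.15 and 2.63 to 3.79 CPM from light plus ATR over light minus ATR and dark plus ATR to dark minus ATR. This order of means was found in 21 tested members (17.5%), close to the 15.6% of all genes. Of the 23, 18 were also higher when ATR was added under light, as were 69 of all 120 tested members. Called higher were 4 of the 23 (over the family 20 of 120, and 8.39% of all genes), namely clec-71, clec-79, clec-125 and clec-227. Both comparisons use the light minus ATR libraries and so are not independent. The median log2 fold change of the 23 between the light groups was 0.44. With the sperm marker level in the model it was 0.09, and 1 call (clec-71) remained. Summed sperm markers followed the same order of groups, so this added term cannot tell their part in these members from that of the conditions.

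Whether the change with ATR differed between light and dark was tested as an interaction. It was called for 14 members, 8 of them positive and 6 negative, which is 11.7% of those tested, against 5.23% of all genes (2.58% positive and 2.65% negative). Scaled by spike-in counts, which moved the median of all genes to -0.1, the split was 4 and 5, and by library totals 9 and 4. All genes split 124 and 296 with spike-in counts and 589 and 284 with library totals, in place of 388 and 399. Without the 4 libraries that stood apart, 7 were called (4 positive and 3 negative, 5.74% against 2.51% of all genes). The largest were clec-70 (log2 2.87 ± 0.31 SE), clec-69 (2.68 ± 0.5 SE) and clec-53 (1.69 ± 0.18 SE). In clec-70 the ATR effect in the dark was negative on average (log2 -0.67 ± 0.23 SE, adjusted p = 0.576, edgeR), and in the light it was 2.21. Positive values were also called for clec-150 (0.72), clec-67 (0.71), clec-62 (0.45), clec-63 (0.26) and clec-50 (0.24). clec-50 stands for a different shape, with 284 to 298 CPM in light plus ATR and 282 to 301 CPM in dark minus ATR, but 259 to 272 and 264 to 278 CPM in the groups with 1 factor only. Negative values were called for clec-265 (-0.74), clec-223 (-0.73), clec-57 (-0.73), clec-41 (-0.57), clec-5 (-0.46) and clec-186 (-0.34). clec-72, clec-71, clec-227 and clec-79 were called higher between the light groups but had interactions of 0.69, 0.78, 0.08 and 0.44 that did not pass.

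Pathways known to act on lectin genes were set beside them for the 2 light groups, between which 8.39% of all genes were higher and 7.9% lower. In the DBL-1 (BMP) pathway, 2 of 9 tested genes were higher, namely the Smad genes sma-2 (5.92 ± 0.32 to 8.73 ± 0.26 CPM, log2 0.56) and sma-3 (log2 0.3). Of 10 genes of the insulin and DAF-16 pathway 1 was lower, the heat shock factor gene hsf-1 (log2 -0.13), and of 13 intestinal and immune regulators 1 was higher, the beta-catenin gene bar-1 (log2 0.22). Galectins, a lectin family with another fold, had 4 higher and 1 lower of 12, led by lec-4 (60.2 ± 1.82 to 83.8 ± 2.27 CPM, log2 0.48), lec-2 (0.46) and lec-5 (0.26). A list of other immune genes, taken by the symbols lys, ilys, spp, cnc, abf, thn, irg, fip and fipr, had 23 higher and 6 lower of 63 tested. Its median log2 fold change was 0.26 against 0.01 for all genes. The list was led by the lysozyme gene lys-4 (0.74) and the saposin-like genes spp-18 (0.73) and spp-2 (1.12). The clec median was 0.11.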

How the data were processed

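Poly(A) RNA of 16 whole-worm libraries (4 groups of 4, which the study's methods describe as independent biological replicates) was analysed. The authors processed stranded TruSeq reads with the nf-core RNA-seq pipeline (version 3.0) on WBcel235 with Ensembl's annotation, and deposited salmon estimated counts per gene, which are not normalized. A deposited table named for TPM holds the same estimated counts and added nothing. The authors used DESeq2 1.30.1. Here, estimated counts were rounded, filtered with filterByExpr, scaled by TMM and tested with edgeR 4.0.16 (robust quasi-likelihood, 1 coefficient per group, all 16 libraries) in R 4.3.3, at an adjusted p under 0.05 over 15044 genes. Standard errors were derived from the F statistic. DESeq2 1.42.0, no filter, library totals, spike-in scaling, TMM without germline, embryo and sperm genes, a replicate block, fits of the compared groups only and fits without single libraries were alternatives. The sperm marker covariate (mean log2 CPM per library) and the fit without 4 libraries were added after seeing the data.

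Members were selected by symbol. Members, gene lists and tests were chosen with earlier results of these data known. Named members were the 10 largest called rises and falls with a mean log2 CPM of at least 0, the 6 with the highest level per kb, those with the smallest p elsewhere and those with reported roles. Others were named after their values were seen. Coordinates are those of Ensembl release 115 (WBcel235). Counts of 15044 genes were simulated for all 16 libraries, with changes placed in light plus ATR. Between the 2 light groups edgeR called 82 of 100 genes changed by a log2 of 1, 50 of 100 changed by 0.5 and 7 of 14844 left unchanged. Changed genes were drawn from all tested genes (median log2 CPM 3.5, against 1.41 for members), so these are not rates for the family. Sequences of the members were not used here, so read sharing between similar members was not examined.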

Additional observations from a re-analysis of the deposited data

Results flagged for a closer look

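Among 124 groups of 4 libraries (31 named tested members in 4 groups), 11 held a library whose gap to the nearest other took up more of the range than Dixon's critical value for 4 samples allows, where chance gives about 1 in 20. In dark plus ATR the gap was 0.922 of the range for clec-70 (replicate 3 highest), 0.945 for clec-71, 0.894 for clec-67 and 0.9 for clec-63 (replicate 2 highest in each), 0.836 for clec-227 (replicate 4 lowest) and 0.89 for clec-50 (replicate 4 highest). In dark minus ATR it was 0.932 for clec-72 (replicate 2 lowest) and 0.854 for clec-190 (replicate 3 highest). In light minus ATR replicate 1 was highest for clec-62 (0.876) and clec-85 (0.94). In light plus ATR the only case was clec-86 (replicate 1 highest, 0.899).

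The effect of ATR differed between light and dark, by the interaction test of edgeR, in 14 members. The log2 interaction was 2.87 for clec-70, 2.68 for clec-69, 1.69 for clec-53, 0.72 for clec-150, 0.71 for clec-67, 0.45 for clec-62, 0.26 for clec-63 and 0.24 for clec-50. It was -0.74 for clec-265, -0.73 for clec-223, -0.73 for clec-57, -0.57 for clec-41, -0.46 for clec-5 and -0.34 for clec-186.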

How the results depend on the processing

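No named member reversed past the threshold under any alternative run, though values near 0 changed sign in clec-87 and clec-85. DESeq2 called 2 members for light alone in place of 0. Spike-in scaling left 9 interactions in place of 14 (over all genes 420 in place of 787). The median member's log2 fold change between the light groups, 0.11, became -0.000921 with DESeq2 and 0 without a filter, both of which cover 236 members, most of the added ones near silent. Leaving out 1 library gave 27 to 34 members between the light groups, and, for light plus ATR, 44 to 50 against dark plus ATR, 53 to 60 against dark minus ATR, 0 for light alone, 0 for ATR alone, 12 to 15 interactions and a median of 0.05 to 0.17. Over all genes the calls, in the same order, were 1619 to 2384, 3244 to 3948, 4707 to 5386, 0 to 9, 5 to 10 and 646 to 787. With the sperm marker level in the model, 21 members were called against dark plus ATR and 19 against dark minus ATR. Without the 4 control libraries that stood apart, 21 members were called between the light groups and 7 interactions. Calls of 19 of the 36 members were lost in at least 1 alternative, namely clec-4, clec-10, clec-31, clec-50, clec-54, clec-56, clec-71, clec-79, clec-83, clec-86, clec-125, clec-146, clec-147, clec-170, clec-190, clec-227, clec-258, clec-260 and clec-264. Among members named by the rules above that were not called, clec-88, clec-91, clec-7 and clec-60 gained a call in at least 1. Calls gained by other members are not listed here. The causes were not tested. Members under 1 CPM rest on few counts per library.

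Replicate numbers were not used as a pairing, since no label ties them to a batch and deviations of same-numbered libraries correlated between -0.177 and 0.189. As a hint from the data, their median correlation was 0.058, against -0.029 for different numbers, and 9 of 16 libraries correlated best with their own number out of 4. Replicate 2 of each control group was also among the libraries that stood apart, while replicate 2 of light plus ATR was not. A shared batch was not tested. With a replicate block, 37, 55, 61, 0, 0 and 17 members were called in the 5 comparisons and the interaction, in the order above. Over all 15044 genes the block gave 2791, 4506, 5822, 0, 9 and 1062 calls, in place of 2450, 4169, 5546, 0, 10 and 787.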

Other observations

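A single tested member, clec-209, was at 0 counts in some libraries while its median was at least 50 counts. Light plus ATR replicate 1 and dark minus ATR replicate 4 held 0 counts, and the other 14 libraries held 198 to 627. In 13 libraries its estimated count was not a whole number. It was not called (log2 -0.89 ± 0.86 SE between the light groups), and the cause was not tested.

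clec-197 had the lowest fitted log2 fold change of the tested members (-3.85 ± 2 SE, adjusted p = 0.214, edgeR) and followed the 4 control libraries that stood apart among members with few counts, as did clec-94, clec-107, clec-134, clec-137 and clec-219, which had no counts in light plus ATR. It held 0.743 CPM in replicate 2 and 1.27 CPM in replicate 4 of light minus ATR, 0.865 and 0.914 CPM in replicate 2 of dark plus ATR and dark minus ATR, and at most 0.134 CPM in each of the other 12 libraries.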
